A study of Rattus norvegicus with 18 samples.

Results

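The 5 genes described here, Zfp36, Zfp36l1, Zfp36l2, Zc3h12a and Elavl1, encode proteins that set how long inflammatory messenger RNAs last. They were taken by gene symbol from a table of 32883 genes, in which each of the 5 had a single row. The RNA came from microdissected cortical collecting ducts of male Sprague-Dawley rats, where the kidney adjusts the salt, acid and water of urine. One group was given lipopolysaccharide (LPS), a component of the bacterial outer membrane, into the peritoneum and the other normal saline, called Vehicle, and ducts of both were taken 3 h later. Each group held 3 numbered samples of 3 libraries, 18 libraries in all, and the design text calls the samples paired. The labels give no LPS dose and no age, and leave unsaid how many animals a numbered sample holds and what makes 2 samples a pair.

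Many cytokine mRNAs carry AU-rich elements. Zfp36 (tristetraprolin) and its relatives Zfp36l1 and Zfp36l2 bind these elements through paired CCCH zinc fingers and recruit the CCR4-NOT deadenylase, which shortens the poly(A) tail and starts decay. Zc3h12a (Regnase-1) is an endoribonuclease that cuts stem-loops in mRNAs such as that of interleukin 6. Elavl1 (HuR) binds AU-rich mRNAs too and is known for stabilising them. In mice, loss of Zfp36 or of Zc3h12a leads to systemic inflammation.

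Values are TPM, the share of transcripts in a library corrected for transcript length, so levels of different genes can be compared. The median correlation across tested genes was 0.97 between libraries of one sample and 0.872 between an LPS and a Vehicle library. Genes at or above 1 TPM numbered 11399 to 11841 in LPS libraries and 11932 to 12704 in Vehicle libraries. On the first principal component LPS 1 lay between the Vehicle libraries and the libraries of LPS 2 and LPS 3. Markers of the labelled tissue were abundant, with Aqp2, the water channel gene of principal cells, at 4012 ± 1098 TPM in LPS and 5961 ± 551 TPM in Vehicle (SD, n = 3 each), a log2 change of -0.60 (limma adjusted p = 0.0207). Vehicle 1 stood apart in 4 of 8 markers of the distal convoluted and connecting tubule, the segments before the collecting duct, namely Calb1, Tmem52b, Slc8a1 and Trpv5. Wnk4, Trpm6 and Slc12a3 did not set Vehicle 1 apart from Vehicle 2 and Vehicle 3, and Pvalb was at 0 in all libraries. The summed level of the 8 was 60.6 to 336 TPM in the LPS samples, against 5355 TPM in Vehicle 1 and 152 and 253 TPM in Vehicle 2 and Vehicle 3, and in Vehicle 1 most of it was Calb1. The change of each of the 5 genes is also given without sample number 1.

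Of the 5 genes, Zc3h12a was the only one called in the test across all genes, and it rose. It averaged 9.59 ± 4.26 TPM in LPS and 1.90 ± 0.764 TPM in Vehicle (SD, n = 3 each). Zfp36 was by far the most abundant member and stood far apart between samples, Zfp36l1 was high in LPS 2 and LPS 3 only, Zfp36l2 overlapped between the groups, and Elavl1 stood slightly lower in LPS without passing the test. Across the tested genes, 7.17% were called higher and 22.2% were called lower at a limma adjusted p under 0.05. The count among the members was 1 of 5 higher and 0 of 5 lower, and at an unadjusted p under 0.05 Zfp36l1 was also higher.

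The levels spanned a wide range. In LPS the order by mean TPM was Zfp36, Elavl1, Zfp36l1, Zfp36l2 and Zc3h12a, and in Vehicle it was Zfp36, Elavl1, Zfp36l2, Zfp36l1 and Zc3h12a. Zfp36l1 and Zfp36l2 overlapped in both groups, and Elavl1 and Zfp36l1 overlapped in LPS. The other neighbours in each order did not overlap. Among the 12393 tested genes Zfp36 ranked 88th by mean TPM in LPS and 204th in Vehicle, and Zc3h12a ranked 6992nd in LPS and 11339th in Vehicle. All 5 passed the filter of a mean of 1 TPM on the Vehicle libraries alone.

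**Figure D1:**
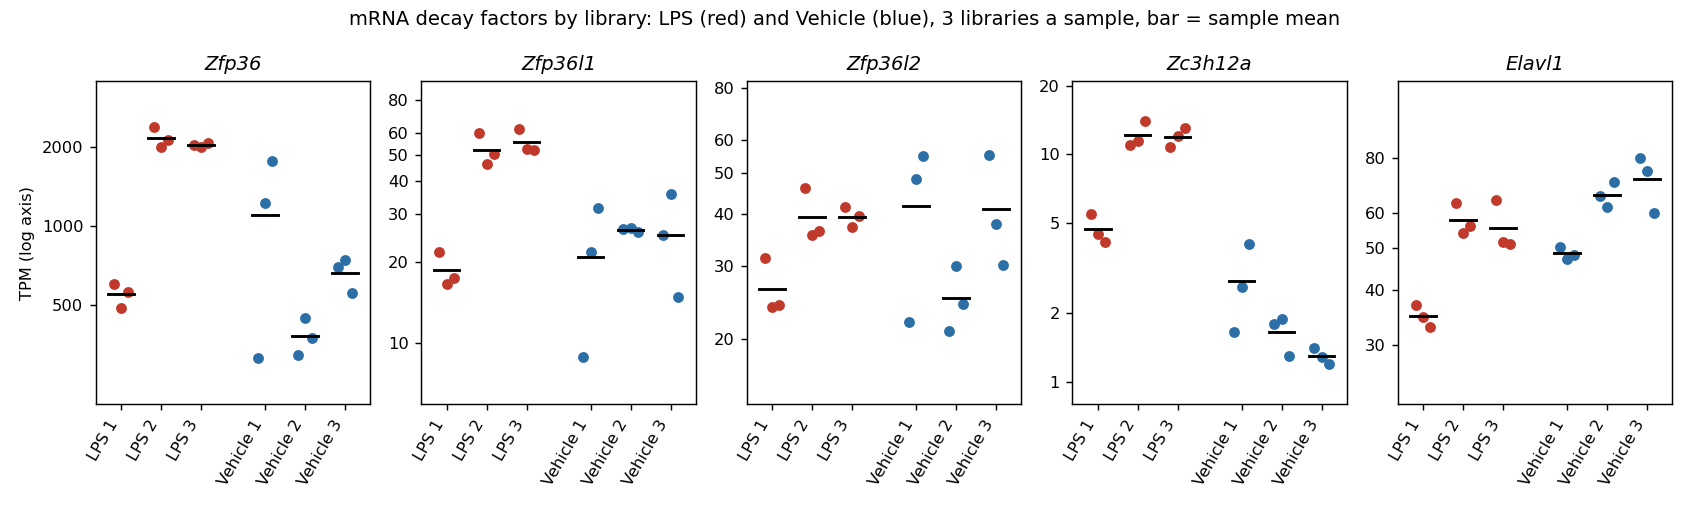
TPM of the 5 genes (log axis) in each library, with the LPS samples in red on the left and the Vehicle samples in blue on the right; points are libraries and bars are sample means. The 3 LPS samples of Zc3h12a, from 4.68 to 12.2 TPM, lie above its 3 Vehicle samples, and the libraries of Vehicle 1 are spread from 315 to 1770 TPM for Zfp36.

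Zc3h12a (ENSRNOG00000009131) had sample means of 4.68, 12.2 and 12.0 TPM in LPS 1, 2 and 3, against 2.76, 1.66 and 1.29 TPM in Vehicle 1, 2 and 3. Every LPS sample was above every Vehicle sample, which held for 9.82% of tested genes, while 47.1% had every LPS sample below every Vehicle sample. By library, LPS 1 stood at 5.48, 4.45 and 4.11 TPM, LPS 2 at 10.97, 11.43 and 14.04 TPM and LPS 3 at 10.78, 12.01 and 13.06 TPM. The Vehicle libraries stood at 1.66, 2.60 and 4.02 TPM in Vehicle 1, at 1.80, 1.88 and 1.29 TPM in Vehicle 2 and at 1.41, 1.28 and 1.19 TPM in Vehicle 3. The highest Vehicle library, of Vehicle 1, was just below the lowest LPS library, of LPS 1. The log2 change was 1.81 (SE 0.382, 95% interval 0.91 to 2.72, limma adjusted p = 0.0207), and the 3 pairs differed by 0.64, 2.31 and 2.50. Without sample number 1 it was 2.40 (adjusted p = 0.00324). The fold change is on the log2(TPM + 1) scale, which understates it at these low levels, and with a pseudocount of 0.1 it was 2.25. The call was lost without sample number 3 (1.47, limma adjusted p = 0.143) and, narrowly, with libraries scaled by their median ratio (2.12, adjusted p = 0.0562).

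Zfp36 (ENSRNOG00000058388), the founding member of its family, had sample means of 549, 2163 and 2027 TPM in LPS 1, 2 and 3, against 1104, 382 and 665 TPM in Vehicle 1, 2 and 3. LPS 2 and LPS 3 were above all 3 Vehicle samples, and LPS 1 lay below Vehicle 1 and Vehicle 3. The 3 libraries of LPS 3 agreed closely, at 2025, 1994 and 2061 TPM, whereas those of Vehicle 1 stood at 315, 1227 and 1770 TPM. The mean was 1580 ± 895 TPM in LPS and 717 ± 364 TPM in Vehicle (SD, n = 3 each), and the log2 change of 1.15 did not pass the test (SE 0.522, 95% interval -0.09 to 2.38, limma adjusted p = 0.125). The pairs differed by -0.69, 2.51 and 1.62. Without sample number 1 the log2 change was 2.06 and was called (limma adjusted p = 0.00587), as it was with LPS 1 left out and no pairing (1.79, adjusted p = 0.00603). It was also called without sample number 2, at 0.47 with adjusted p = 0.0117, where the remaining pairs pointed in opposite directions and the variance prior was estimated as infinite, so the spread between those pairs did not enter that test.

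Zfp36l1 (ENSRNOG00000058646), a relative of Zfp36 with the same finger arrangement, had sample means of 18.6, 52.2 and 55.6 TPM in LPS 1, 2 and 3, against 20.8, 26.4 and 25.3 TPM in Vehicle 1, 2 and 3. LPS 2 and LPS 3 stood at about the same level, above every Vehicle sample, and LPS 1 was the lowest of the 6 samples. The libraries of LPS 1 ranged from 16.6 to 21.8 TPM and those of LPS 2 and LPS 3 from 46.3 to 62.4 TPM, while the Vehicle libraries ranged from 8.91 to 35.8 TPM. The log2 change was 0.71 (SE 0.259, 95% interval 0.10 to 1.32, unadjusted p = 0.0285, limma adjusted p = 0.074) and was not called. The pairs differed by 0.00, 0.95 and 1.18. It was called without sample number 1 (1.07, limma adjusted p = 0.00942) and with LPS 1 left out and no pairing (1.21, adjusted p = 0.0019).

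Zfp36l2 (ENSRNOG00000005067), the other widely expressed relative, had sample means of 26.4, 39.3 and 39.3 TPM in LPS 1, 2 and 3, against 41.8, 25.1 and 41.1 TPM in Vehicle 1, 2 and 3. The groups overlapped throughout, with the highest sample and the lowest sample both in Vehicle. The log2 change was 0.02 (SE 0.249, limma adjusted p = 0.953) with a 95% interval from -0.57 to 0.61, and the pairs differed by -0.55, 0.63 and -0.02. Without sample number 1 the log2 change was 0.31 (adjusted p = 0.268). Its sign was negative without sample number 2 (-0.28), with the median of the libraries (-0.11) and without 1 library of Vehicle 1 (-0.11), and none of these was called.

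Elavl1 (ENSRNOG00000001069) had sample means of 34.9, 57.8 and 55.6 TPM in LPS 1, 2 and 3, against 48.5, 66.0 and 71.8 TPM in Vehicle 1, 2 and 3. Each LPS sample was below the Vehicle sample of its number, by 0.47, 0.19 and 0.36 on the log2 scale, but the groups overlapped, with LPS 2 and LPS 3 above Vehicle 1. The log2 change of -0.34 was not called (SE 0.166, 95% interval -0.73 to 0.05, limma adjusted p = 0.146) and lay close to the median change of all tested genes, -0.38. With median-ratio scaling, where that median was -0.02, the change of Elavl1 was 0.06 (adjusted p = 0.794), and with quantile normalization, where it was -0.12, it was -0.16 (adjusted p = 0.403). Without sample number 1 the change was -0.28 (adjusted p = 0.175). A fit of all 18 libraries with an estimated correlation gave the same change of -0.34 and called it (limma adjusted p = 0.0245). That fit had 14 residual degrees of freedom, against 2 in the reported fit, since libraries of one sample entered it separately.

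**Figure D2:**
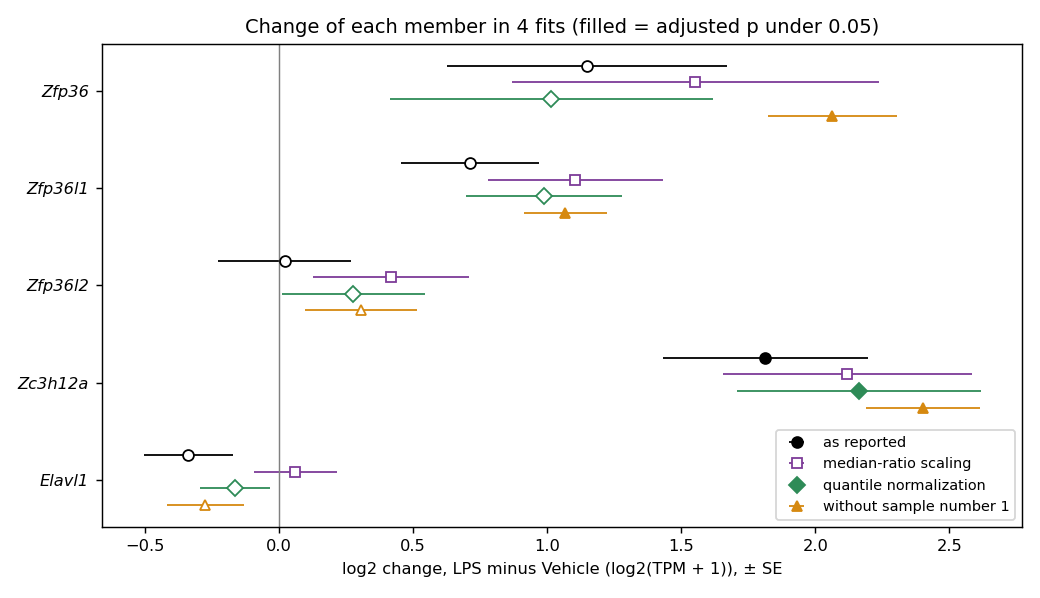
Log2 change of each gene, LPS minus Vehicle, with its SE, in the reported fit, under median-ratio scaling, under quantile normalization and without sample number 1; filled symbols have an adjusted p under 0.05. Zfp36 is at 1.15 as reported and at 2.06 without sample number 1, and Elavl1 moves across 0 with the scaling.

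Shares and ratios were taken from the mean TPM of each sample. Zfp36 made up 92.4, 95.9 and 95.5% of the summed TPM of the 3 Zfp36 relatives in LPS 1, 2 and 3, against 94.6, 88.1 and 90.9% in Vehicle 1, 2 and 3. The 2 groups overlapped, at 94.6 ± 1.93% in LPS and 91.2 ± 3.27% in Vehicle (SD, n = 3 each, exact two-sided permutation p = 0.2, adjusted p = 0.3 over 3 shares). The smallest p that 3 samples against 3 can give is 0.1, so none of these tests could pass. The difference of 3.40 percentage points was 6.21 without sample number 1 and 1.19 without sample number 2. Zfp36l2 held 2.68 ± 1.53% of the sum in LPS and 4.995 ± 1.229% in Vehicle (exact permutation p = 0.2), with a difference of -2.31 percentage points that ran from -3.90 without sample number 1 to -1.45 without sample number 2. Zfp36l1 held 2.69 ± 0.412% in LPS and 3.78 ± 2.17% in Vehicle (exact permutation p = 0.6). The family sum was 594, 2254 and 2122 TPM in LPS 1, 2 and 3, against 1166, 433 and 731 TPM in Vehicle 1, 2 and 3.

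Set against Elavl1 in the same sample, Zc3h12a was higher in every LPS sample. The log2 ratio of Zc3h12a to Elavl1 was -2.90, -2.25 and -2.22 in LPS 1, 2 and 3, against -4.14, -5.32 and -5.79 in Vehicle 1, 2 and 3, a difference of 2.63. For Zfp36l1 the log2 ratio to Elavl1 was -0.91, -0.15 and 0.00 in LPS 1, 2 and 3, against -1.22, -1.32 and -1.51 in Vehicle 1, 2 and 3. Both ratios had an exact two-sided permutation p = 0.1, the smallest that 3 samples against 3 can give, and an adjusted p = 0.2 over the 4 ratios. How many of all tested genes part the groups by their ratio to Elavl1 was not counted. The TPM of Zfp36l1 itself overlapped between the groups, and the ratios were added after the data were seen. For Zfp36 the ratio overlapped between groups, at 4.80 ± 0.710 in LPS and 3.42 ± 1.00 in Vehicle (SD, n = 3 each, exact permutation p = 0.2), and for Zfp36l2 it was -0.49 ± 0.0805 in LPS and -0.81 ± 0.59 in Vehicle (exact permutation p = 0.5). Without sample number 1 the differences in log2 ratio were 3.32 for Zc3h12a, 2.33 for Zfp36, 1.34 for Zfp36l1 and 0.57 for Zfp36l2. Without sample number 2 those for Zfp36 and Zfp36l2 were 0.72 and 0.062. A ratio shows unequal change of 2 genes and not which of them moved.

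The libraries of Vehicle 1 were unlike each other in the 4 zinc finger genes. Library 1 of Vehicle 1 was the lowest of its sample for all 4. The distal tubule markers summed to 10349, 3651 and 2065 TPM in libraries 1, 2 and 3 of Vehicle 1, the reverse order of Zfp36, and their part in the result was not tested. For Zfp36 the highest library of Vehicle 1 was 5.63 times the lowest, a log2 range wider than that of 98.5% of tested genes in the same sample, where the median range was 0.31. The same ratio was 3.55 for Zfp36l1, 2.49 for Zfp36l2 and 2.42 for Zc3h12a, and 1.06 for Elavl1. In the LPS samples the highest library of a member was at most 1.33 times the lowest. Vehicle 3 was also uneven for some members, where the highest library was 2.40 times the lowest for Zfp36l1 and 1.83 times for Zfp36l2. The SD between libraries of one sample was 0.56 (log2) for Zfp36 over all 6 samples and 0.17 without Vehicle 1, set against 1.12 between LPS samples and 0.62 between Vehicle samples.

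The genes whose profile over the 18 libraries was nearest to each member, by the root mean square difference of centred log2 values among 9193 genes at 5 TPM or more, are given as a description. For Zfp36 they were Ier3, an immediate early gene (difference 0.298), Cish, a cytokine-induced SOCS family gene (0.319), and Gadd45g, a stress-inducible gene (0.342). Ier3 shared the spread within Vehicle 1, with 196, 836 and 968 TPM in its libraries 1, 2 and 3, and stood at 638 ± 369 TPM in LPS and 397 ± 238 TPM in Vehicle (SD, n = 3 each). Neither Ier3, Cish nor Gadd45g was called, with limma adjusted p of 0.302, 0.128 and 0.0608. For Zc3h12a the nearest were Rap2c, a small GTPase gene (0.220), Litaf, a gene named for its induction by LPS (0.2504), and Tnfrsf1a, the TNF receptor gene (0.251). All 3 stood higher in LPS, by 1.96, 1.74 and 2.02 on the log2 scale, with limma adjusted p of 0.00826, 0.0061 and 0.00479. Profiles were compared over LPS and Vehicle libraries together, so a near gene had to change much as its member did. Whether a near gene was called is thus no support for the change of a member, here and below.

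**Figure D3:**
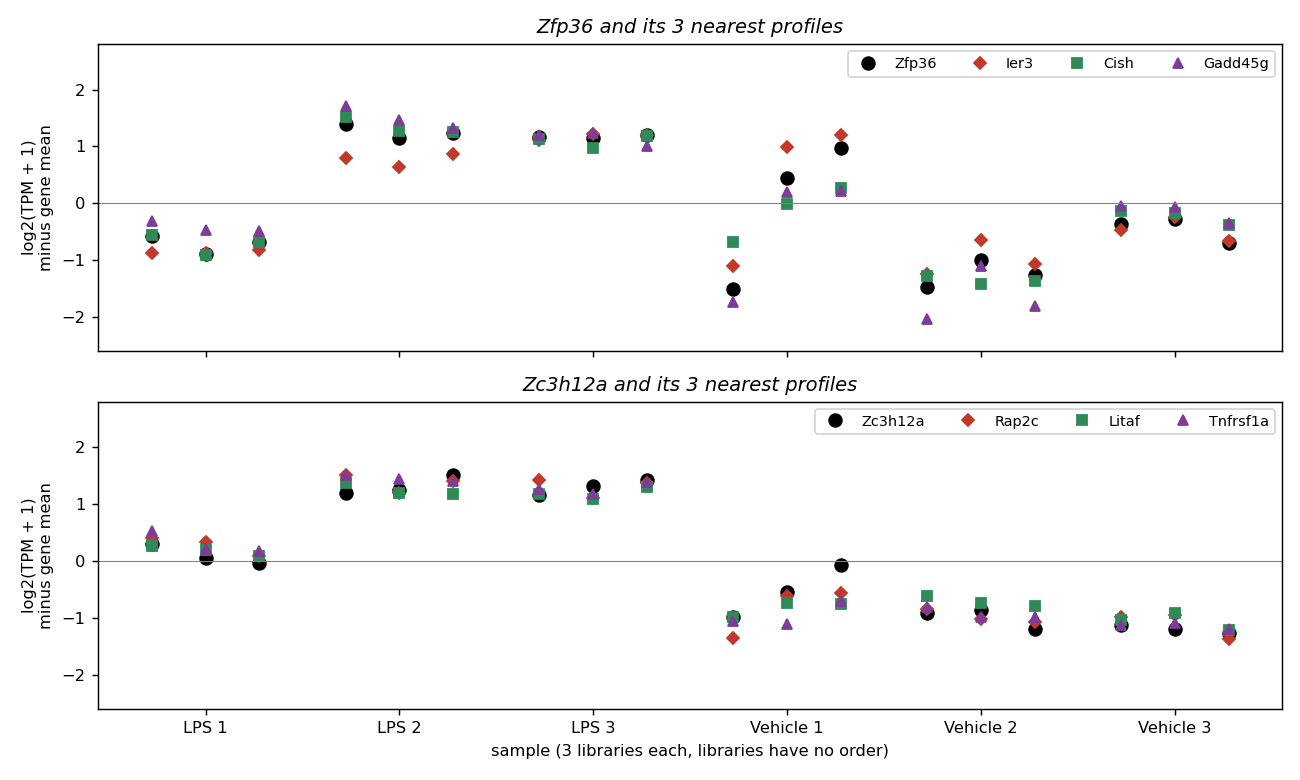
Log2(TPM + 1) minus the mean of each gene over the 18 libraries, for Zfp36 (top) and Zc3h12a (bottom) with the 3 genes of nearest profile; each point is a library, LPS samples on the left. In Vehicle 1 the libraries of Zfp36 and Ier3 are far apart, and in LPS 1 Zfp36 lies below 0 while Zc3h12a lies near 0.

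Zfp36l1 was nearest to Tiparp, an ADP-ribosyltransferase gene (0.270), Sh3d19 (0.309) and Plec, the cytolinker plectin gene (0.309), none of them called. Zfp36l2 was nearest to Atf4, the transcription factor of the integrated stress response (0.214), Klf10 (0.229) and Srsf3, a splicing factor gene (0.248). Atf4 stood at 290 ± 65.5 TPM in LPS and 292 ± 57.7 TPM in Vehicle (SD, n = 3 each). Elavl1 was nearest to Cisd2 (0.1495), Baz2b (0.153) and Tgs1, a cap methyltransferase gene (0.159), and none of these was called. Over the 18 libraries Zfp36 correlated with Zfp36l1 at r = 0.822, with Zc3h12a at r = 0.825 and with Zfp36l2 at r = 0.735, and with Elavl1 at r = 0.0352. Libraries of one numbered sample were not counted as separate samples, and the labels do not say what they share. The correlations are thus descriptions over 6 samples.

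Promoter sequence is shown for the gene that rose, the most abundant member and the mRNA stabiliser, as the 250 bases before each RefSeq start in the GRCr8 assembly, 5′ to 3′ on the strand of the gene. TPM were made on another assembly, Rnor_6.0. Capitals mark matches, on either strand, to 8 searched motifs: an NF-kappaB consensus, AP-1 (TGANTCA), a core of the cyclic AMP response element (TGACG), the CCAAT box, the GC box (GGGCGG), a STAT element (TTCNNNGAA), the CArG box of serum response elements and a TATA-like stretch (ATAAAA).
Zc3h12a, chr5:142669986-142670235, minus strand: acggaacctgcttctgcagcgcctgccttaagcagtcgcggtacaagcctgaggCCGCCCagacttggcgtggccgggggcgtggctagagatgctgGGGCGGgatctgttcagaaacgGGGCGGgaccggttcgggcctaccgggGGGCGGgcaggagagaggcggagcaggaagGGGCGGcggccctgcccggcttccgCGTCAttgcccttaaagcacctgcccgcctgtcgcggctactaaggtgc
Zfp36, chr1:92799109-92799358, minus strand: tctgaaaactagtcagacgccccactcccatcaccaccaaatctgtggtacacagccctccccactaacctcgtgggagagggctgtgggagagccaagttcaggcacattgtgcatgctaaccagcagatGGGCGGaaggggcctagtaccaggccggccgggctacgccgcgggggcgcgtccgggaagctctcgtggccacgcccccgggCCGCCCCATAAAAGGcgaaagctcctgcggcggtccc
Elavl1, chr12:7482626-7482875, minus strand: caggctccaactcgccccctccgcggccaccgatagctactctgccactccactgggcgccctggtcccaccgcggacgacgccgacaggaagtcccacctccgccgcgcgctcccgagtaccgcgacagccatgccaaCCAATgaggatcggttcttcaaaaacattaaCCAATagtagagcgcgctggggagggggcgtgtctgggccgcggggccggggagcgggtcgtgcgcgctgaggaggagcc

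The Zc3h12a window held 5 GC boxes and 1 cyclic AMP response core that begins 49 bases before the start, on the reverse strand. Over 27457 rat promoters of the same length, 32.4% held a GC box and 19.0% held that core. The window of Zfp36l2, not printed here, also held 5 GC boxes and 1 such core, and the log2 change of Zfp36l2 was 0.02. The part of these motifs in the levels was not tested. The Zfp36 window held 2 GC boxes and a CArG box that begins 32 bases before the start. The TATA-like stretch lies inside that CArG box, and a GC box ends on its first base. A CArG box was found in 1.501% of promoters and the TATA-like stretch in 18.6%. The Elavl1 window held 2 CCAAT boxes, 111 and 80 bases before the start, where 34.3% of promoters held at least 1. None of the 5 windows matched the NF-kappaB consensus, which 6.41% of promoters did, and that says nothing on sites elsewhere in these genes. AP-1 matched in Zfp36l1 alone, with 6.36% of promoters, and the STAT element in none, with 7.52%.

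Around these members, 107 genes of mRNA decay and its regulation in 6 lists were examined, of which 100 were tested. They are called decay list genes here, though 16 of the 107 are signalling genes that act on Zfp36 or Regnase-1. Of the 100, 10 rose (10%, against 7.17% of all tested genes) and 13 fell (13%, against 22.2%), with a median log2 change of -0.27, against -0.38 over all tested genes. The 10 include Arid5a, which passed the filter only through its LPS libraries, so that it had to be higher in LPS. With median-ratio scaling 9 were higher and 1 was lower, where 6.62% and 3.71% of all tested genes were. With quantile normalization 9 were higher and 2 lower, where 6.53% and 4.67% of all tested genes were. The falls thus depend on the scaling, in the lists as over all genes. Without sample number 1 there were 12 higher and 25 lower (9.09% and 34% of all tested genes), and without sample number 2 there were 5 and 5 (5.86% and 10.1%), in the fit whose variance prior was infinite. Without sample number 3 there were 3 and 1 (2.29% and 0.688%), and without library 1 of Vehicle 1 there were 7 and 8 (6.15% and 14.4%). Of the 21 called decay list genes named in the next paragraphs, Mapkapk2 and Tbk1 among them, 20 were still called without sample number 1, 8 without sample number 2, 4 without sample number 3 and 14 without library 1 of Vehicle 1. The 4 without sample number 3 were Arid5a, Zc3hav1, N4bp1 and Tob1, which were also called in each of the other 3 of these fits. None of the 21 was called with the median of the libraries or without a filter.

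Among zinc finger and AU-rich element binding relatives 4 of 16 tested genes rose and 0 fell, with a list median of -0.16. That is 25% and 0%, against 7.17% and 22.2% of all tested genes. Of the 15 tested genes that passed the filter on the Vehicle libraries alone, 3 rose. Arid5a, whose protein in mice binds and stabilises the Il6 mRNA that Regnase-1 degrades, rose most, with 42.0, 137.5 and 113 TPM in LPS 1, 2 and 3, against 0.913, 0.350 and 0.223 TPM in Vehicle 1, 2 and 3. No Arid5a sample of LPS came near a Vehicle sample, and its log2 change was 5.90 (SE 0.424, limma adjusted p = 0.000552). It passed the filter only through its LPS libraries, so it had to be higher in LPS and is no support for a direction. Zc3hav1, the antiviral zinc finger gene ZAP, stood at 73.2 ± 29.8 TPM in LPS and 11.2 ± 1.604 TPM in Vehicle (SD, n = 3 each) and rose by 2.51 (adjusted p = 0.00249). N4bp1, a ribonuclease gene related to Zc3h12a, stood at 29.6 ± 7.96 TPM in LPS and 8.78 ± 2.52 TPM in Vehicle and rose by 1.64 (adjusted p = 0.00274). These 3 kept their call under both scalings. Zc3h12c, the Regnase-3 gene, rose by 1.05 (adjusted p = 0.031), and with median-ratio scaling it was at 1.38 with adjusted p = 0.0543. Its call was also lost without the pairing (adjusted p = 0.08), without sample number 2 (adjusted p = 0.123) and without sample number 3 (adjusted p = 0.2). The Roquin genes Rc3h1 and Rc3h2, which act on some of the same stem-loops as Regnase-1, had log2 changes of -0.20 and -0.22 and were not called. Zc3h12b, Zc3h12d, Zfp36l3, Elavl2, Elavl3 and Elavl4 were below the filter, with Zc3h12d at 0.127 ± 0.0328 TPM in LPS and 0.353 ± 0.00333 TPM in Vehicle (SD, n = 3 each).

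Deadenylases and their adaptors went both ways, with 3 of 21 tested genes higher and 5 lower, and a list median of -0.28. That is 14.3% and 23.8%, against 7.17% and 22.2% of all tested genes. Tob1, an adaptor between the poly(A)-binding protein and CCR4-NOT, had 6.47, 3.06 and 4.87 TPM in LPS 1, 2 and 3, against 31.2, 29.1 and 27.35 TPM in Vehicle 1, 2 and 3. Every LPS sample was below every Vehicle sample, which held for 47.1% of tested genes. Tob1 fell, with a log2 change of -2.35 (SE 0.24, limma adjusted p = 0.00204). Under median-ratio scaling and quantile normalization it was still called, at -1.99 in both. Btg1, a relative of Tob1 that also contacts the deadenylases, had 1048, 1310 and 1181 TPM in LPS 1, 2 and 3, against 552, 549 and 601 TPM in Vehicle 1, 2 and 3, and rose by 1.06 (SE 0.126, adjusted p = 0.00359). Its call was lost without sample number 3 (adjusted p = 0.0622). Pabpc1, the poly(A)-binding protein gene, rose by 0.69 (adjusted p = 0.0312) and Cnot9, a CCR4-NOT subunit gene, by 0.58 (adjusted p = 0.047), and both kept their call under either scaling. Both lost it without library 1 of Vehicle 1 (adjusted p = 0.0619 for each), without sample number 2 (adjusted p = 0.0985 and 0.311) and without sample number 3 (adjusted p = 0.241 and 0.226). Cnot8, the gene of a catalytic subunit, fell by 0.77 (adjusted p = 0.0186), Cnot6l, another deadenylase gene, by 0.83 (adjusted p = 0.0314) and Cnot10 by 0.75 (adjusted p = 0.0358). With median-ratio scaling none of these last 3 was called, and with quantile normalization Cnot8 alone was. Cnot1, the scaffold gene, was at -0.28 (adjusted p = 0.268).

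Of the decapping and 5′ to 3′ decay list 1 of 19 tested genes rose and 2 fell, with a median of -0.21. That is 5.26% and 10.5%, against 7.17% and 22.2% of all tested genes. Dcp2, the decapping enzyme gene, had 4.96, 17.8 and 19.15 TPM in LPS 1, 2 and 3, against 2.02, 2.34 and 4.79 TPM in Vehicle 1, 2 and 3, with LPS 1 just above Vehicle 3. It rose by 1.76 (SE 0.309, limma adjusted p = 0.0132) and was called under both scalings, but not without sample number 3 (1.73, adjusted p = 0.0941). Lsm14a, a processing body gene, and Lsm1, a decapping activator gene, fell by 0.74 and 0.60 (limma adjusted p = 0.0377 and 0.042), without a call under either scaling. The exosome list, the genes of 3′ to 5′ decay, had 0 of 18 higher and 5 lower with a median of -0.48. The 5 are 27.8% of the list, near the 22.2% of all tested genes that were lower. Among them were Exosc9, Exosc2, Exosc5 and Exosc10 at -0.66, -0.65, -0.68 and -0.60 (limma adjusted p from 0.0365 to 0.0455). None of those 4 was called under either scaling. Among genes of Upf1 and nonsense-mediated decay 1 of 10 fell, Upf3b by 0.82 (limma adjusted p = 0.0272), with no call under either scaling, and 0 rose. Upf1, the helicase that Regnase-1 works with, was at -0.25 (adjusted p = 0.365).

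Among the signalling genes known to act on Zfp36 or Regnase-1, mostly of kinases and phosphatases, 2 of 16 tested genes rose and 0 fell. That is 12.5% and 0%, against 7.17% and 22.2% of all tested genes. Mapkapk2, the kinase gene MK2 whose product phosphorylates Zfp36, stood at 142 ± 16.5 TPM in LPS and 93.7 ± 11.7 TPM in Vehicle (SD, n = 3 each) and rose by 0.59 (limma adjusted p = 0.0436). Tbk1, a kinase gene of interferon induction, rose by 0.82 (adjusted p = 0.037). Under quantile normalization neither was called, at 0.69 and 1.04, and under median-ratio scaling Mapkapk2 alone was called. Leaving out any sample number ended the call of Mapkapk2 (adjusted p from 0.0513 to 0.322), and leaving out number 2 or 3 that of Tbk1 (adjusted p = 0.172 and 0.23). The list median was -0.14.

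**Figure D4:**
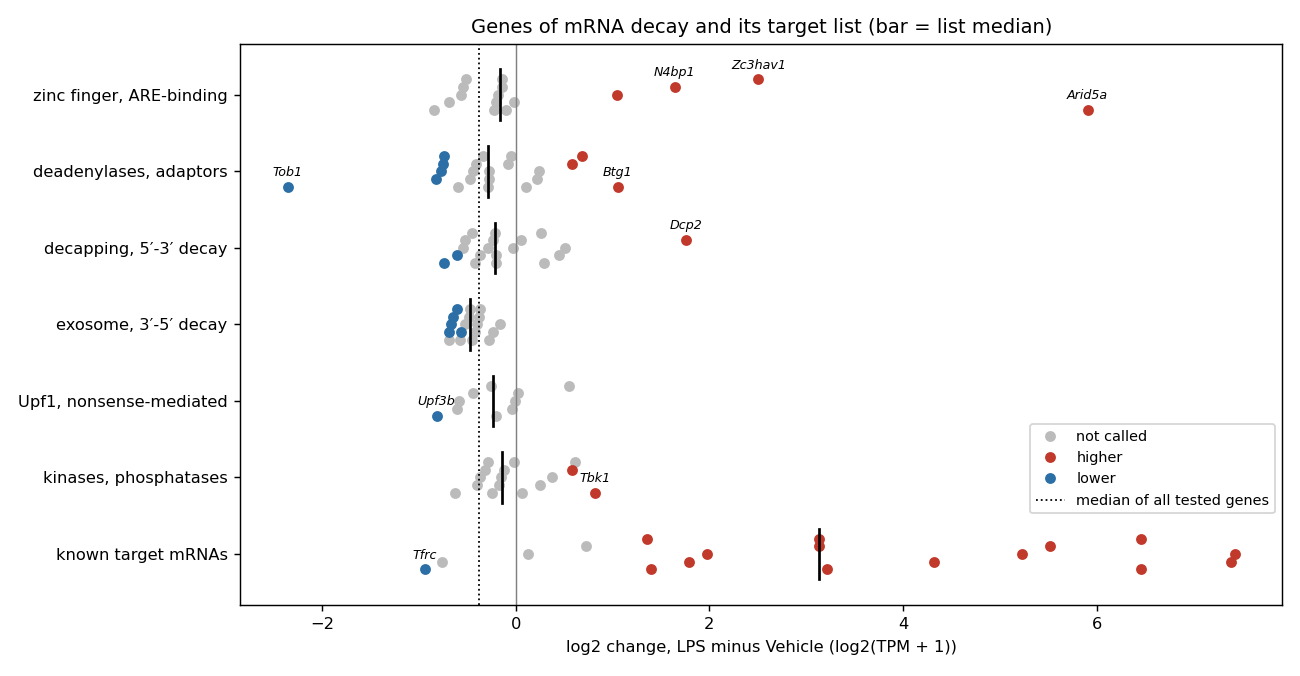
Log2 change of each tested gene in the 6 mRNA decay lists and the list of known target mRNAs; red points were called higher, blue lower and grey not called, black bars are list medians and the dotted line is the median of all tested genes. Among the targets 7 points, and Arid5a among the decay genes, passed the filter only through LPS, and Arid5a at 5.90 and Tob1 at -2.35 are the extremes of the 6 decay lists.

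Of 24 mRNAs known as targets of Zfp36 or Regnase-1, largely from work in mice, 11 passed the filter on Vehicle libraries alone. Of these 11, 7 rose and 1 fell, where 7.17% and 22.2% of all tested genes did. A further 7 passed only through their LPS libraries, so that they had to be higher in LPS, and they are no support for a direction. Ccl20 and Lcn2, of the 11, rose by 7.43 and 7.38 on the log2 scale, and Bcl3 and Ccl2, of the 7, stood 6.46 and 6.45 higher. Ccl20, a chemokine gene, stood at 924 ± 222 TPM in LPS and 8.16 ± 6.68 TPM in Vehicle (SD, n = 3 each). Tfrc, the transferrin receptor gene and a Regnase-1 target in mice, fell by 0.93 (limma adjusted p = 0.0308), without a call under either scaling. Il6, chosen after its values were seen as the best known Regnase-1 target, was listed at 0 in every Vehicle library and at 1.24, 5.70 and 2.96 TPM in LPS 1, 2 and 3. Tnf, the best known Zfp36 target, was listed at 0 in all 18 libraries.

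Markers of the duct cells themselves stood lower in LPS by their sums. Of 10 principal cell markers 6 fell and 1 rose, and their summed level was 13813, 10568 and 10857 TPM in LPS 1, 2 and 3, against 17334, 17090 and 18599 TPM in Vehicle 1, 2 and 3. Of 10 intercalated cell markers 3 fell and 0 rose, with sums of 8009, 6801 and 5974 TPM in LPS 1, 2 and 3, against 9139, 9139 and 8641 TPM in Vehicle 1, 2 and 3. On the log2 scale the principal cell sum changed by -0.60 and the intercalated cell sum by -0.38. A typical tested gene also stood lower, with a median of -0.38, and 22.2% were called lower and 7.17% higher. With median-ratio scaling only 3.71% were called lower, and the marker sums were not tested under that scaling. The intercalated cell sum thus fell no more than the typical gene. RNA of other cells was present too. Of 13 macrophage and monocyte markers 11 were tested, 5 rose and 1 fell, and 0 were at 0 in all libraries. Their summed level was 470, 287 and 223 TPM in LPS 1, 2 and 3, against 270, 130 and 196 TPM in Vehicle 1, 2 and 3. Among LPS samples, LPS 1 had the highest sum and the lowest level of all 5 members, Zfp36l2 and Elavl1 included. Among Vehicle samples, Vehicle 1 had the highest sum and the highest level of Zfp36, Zfp36l2 and Zc3h12a. It had the lowest level of Zfp36l1 and Elavl1. Neutrophil markers summed to between 2.31 and 82.5 TPM in LPS and between 0.450 and 0.850 TPM in Vehicle. Library 3 of LPS 3 stood at 231 TPM and the next highest LPS library at 15.0 TPM. S100a8 and S100a9, the 2 of 10 neutrophil markers that were tested, passed the filter only through LPS. Lymphocyte markers summed to between 7.46 and 9.47 TPM in LPS and between 6.63 and 12.0 TPM in Vehicle, with 0 called of 2 tested, and endothelial markers to between 35.1 and 91.8 TPM in LPS and between 20.8 and 99.9 TPM in Vehicle, with 2 higher and 1 lower of 8 tested. The part of these cells in the results above was not tested. In bulk RNA, fewer cells of a type and less RNA per cell cannot be told apart.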

How the data were processed

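The authors deposited TPM (length-corrected transcript shares) for 32883 Ensembl genes in 18 libraries. STAR 2.7.9a, RSEM 1.3.3 and the build Rnor_6.0 are named in the submitters' processing notes. Depth, annotation and filters were not stated, so no counting interval is given. RSEM divides reads of similar transcripts by estimate, so levels of close relatives are less certain. Columns starting with N were read as Vehicle (normal saline) and with L as LPS. No other value columns were present (0), and 0 libraries were identical.

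Library values, as log2(TPM + 1), were averaged within each numbered sample. The 12393 genes whose mean reached 1 TPM were tested with limma 3.58.1 in R 4.3.3 (variance trend, a block for sample number, since the series describes paired samples, two-sided, Benjamini-Hochberg over all tested genes, threshold 0.05). Residual degrees of freedom were 2 and prior degrees 4.97. Nothing says that numbered samples were separate animals, so p-values reflect only how far these samples differ, which may be technical. Shares and ratios used sample mean TPM and exact permutation tests (scipy 1.17.1). The fitting was tested on simulated data first, with the Vehicle spread in both groups and no pair effect. That test does not cover genes more spread in LPS, such as Zfp36.

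Genes named were the members, the up to 4 called genes of smallest p in each direction of each list, the 3 nearest profiles of each member and the most abundant markers. Other genes were named after their values were seen. The members and lists were chosen with earlier results of these data known. Promoters came from RefSeq (GRCr8), matched by symbol for 5 of 5 members. Alternatives covered the block, the summary over libraries, pseudocount, filter, scaling, variance model and leaving out each sample number. Leaving out LPS 1 or single Vehicle libraries was added after the data were seen, as were the ratios to Elavl1.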

Additional observations from a re-analysis of the deposited data

How the results depend on the processing

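Depth is unknown, so how far low TPM such as those of Zc3h12a in Vehicle could be off by counting cannot be given. Over 17 alternatives Zc3h12a kept its direction, between 1.04 and 2.40, and was called in 13, with adjusted p from 6.69e-05 to 0.143. The lowest is from the fit of all 18 libraries. Libraries of one sample entered that fit separately, with 14 residual degrees of freedom against 2 in the reported fit. One of the 13 is the fit without sample number 2, whose infinite variance prior leaves the spread between the remaining pairs out, and that fit is also among those that called Zfp36. Besides the losses given above it was not called with the median of the libraries (1.75, adjusted p = 0.0917) or without a filter (1.81, adjusted p = 0.115), and with median-ratio scaling it was at 2.12. Over the same 17 alternatives Zfp36 ranged from 0.47 to 2.06 (called in 3), Zfp36l1 from 0.48 to 1.21 (called in 2), Zfp36l2 from -0.28 to 0.42 (called in 0) and Elavl1 from -0.41 to 0.06 (called in 1). The causes were not tested.

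Without the replicate block the members kept their calls, and 21 decay list genes were lower. Same-numbered samples deviated together only weakly across genes (r = 0.0622, -0.0175 and 0.0686), so the block was kept for the stated design alone. The counts of genes called higher and lower were 889 and 2757, and leaving out each sample number gave 280 to 1130 higher and 84 to 4231 lower, with 3 to 12 and 1 to 25 among decay list genes. Under the same leaving out, Zc3h12a lay between 1.47 and 2.40, Zfp36 between 0.47 and 2.06, Zfp36l1 between 0.48 and 1.07, Zfp36l2 between -0.28 and 0.31 and the difference in the Zfp36l1 share between -2.30 and 0.26 percentage points. Counts were 0 and 0 with the median of the libraries (1019 and 4167 at an unadjusted p under 0.05 by limma), with 0 and 0 among decay list genes. They were 18 and 2 without a filter (1382 and 5352 unadjusted), with 0 and 0 among decay list genes. Genes called lower numbered 460 with median-ratio scaling, 579 with quantile normalization, 5295 with all 18 libraries (35 decay list genes) and 1781 without library 1 of Vehicle 1 (8 decay list genes). Without a variance trend 8 decay list genes were lower. With LPS 1 left out and no replicate block 1355 genes were higher and 5787 lower, 16 and 38 of them decay list genes, with Zfp36 at 1.79 and Zfp36l1 at 1.21. Zfp36l2 was at -0.11 with the median of the libraries and without library 1 of Vehicle 1, Elavl1 at 0.061 with median-ratio scaling and at -0.34, called, with all 18 libraries. Leaving out library 1 of Vehicle 3 changed no call of a member.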
